A study of Mus musculus with 24 samples.

Results

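Peaks of open chromatin that were accessible mainly in interneurons of the medial ganglionic eminence (MGE) were described across the cell types of the mouse ventral hippocampus, and are called MGE peaks below. They were chosen by their measured accessibility. The counts of the 4 single-nucleus ATAC-seq (snATAC-seq) libraries were summed for 6 cell groups and scaled to counts per 1000000 (CPM), and a peak on a chromosome was taken where the Inh-MGE group reached at least 5 CPM and at least 3 times the level of each of the 5 other groups. The other groups were Inh-CGE with Inh-Lamp5 (called CGE), the Exc-CA1 types, Exc-CA3, Exc-DG and the non-neuronal types (NN). The rule took 1218 of 300819 peaks, or 0.405% of the 300776 peaks on chromosomes and 2.93% of the 41517 peaks that reached 5 CPM in Inh-MGE. The snRNA-seq, sequence and annotation results below rest on measures that the rule did not use. The levels by cell type are a description with no test, and the strain comparison of accessibility uses the counts that the rule summed.

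The study sampled the ventral hippocampus of adult male mice of several inbred strains, and the libraries used here came from B6 and DBA mice aged 10 to 16 weeks. The labels name no transgene or treatment for either strain. Each library pooled tissue of about 2 animals. There were 2 libraries per strain for snATAC-seq and 2 per strain for snRNA-seq, so that n = 2 for every strain value below. Nuclei for snATAC-seq were not enriched for neurons, whereas those for snRNA-seq were sorted for a majority of NeuN+ nuclei. The tables number the libraries 2 and 3 and the labels number them 1 and 2, so each column was assigned to its strain only.

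MGE interneurons are GABAergic neurons that arise in the embryonic medial ganglionic eminence under the transcription factors Nkx2-1 and Lhx6, migrate to the cortex and hippocampus, and mature mostly into cells that express somatostatin or parvalbumin. Interneurons of the caudal eminence (CGE) instead tend to express Vip, Cck or Lamp5. Each type opens its own set of distal elements, stretches of DNA that transcription factors bind and that can act on genes some distance away. In snATAC-seq a transposase cuts DNA where it is open, so the count in a peak reports how accessible that stretch was in the nuclei summed.

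The Inh-MGE columns held 24475401 snATAC-seq counts from 1772 nuclei, with 4633977 to 7437300 counts per library, and 14466701 snRNA-seq counts from 1637 nuclei, with 2851256 to 4074254 per library. The CGE group held 19920163 snATAC-seq counts and the NN group 6736466. The NN total is the smallest, and a count of 0 there allows up to 0.445 CPM (3 counts, counting error only). The study counted each pool as a replicate, and p-values below rest on 2 pools per strain. The spread between pools was estimated with information shared over all peaks or transcripts tested, so small p-values do not rest on the 2 pools alone.

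The Inh-MGE label was checked against marker genes. Accessibility summed over the peaks in a gene and 2 kb upstream was highest in Inh-MGE for 6 of the 6 MGE markers (Lhx6, Sst, Pvalb, Sox6, Satb1 and Nxph1) and for none of the 10 CGE and Lamp5 markers, 5 excitatory markers, 2 dentate, 2 CA1, 2 CA3, 3 Cajal-Retzius or 9 non-neuronal markers. The snATAC-seq nuclei took their labels from the snRNA-seq nuclei through the accessibility of genes, so these sums and the labels share a source. In snRNA-seq, the lowest Inh-MGE library was above every other group for 5 of the 6 MGE markers. Sox6 was the exception, at 372 CPM in Inh-MGE and 692 CPM in NN, where oligodendrocyte precursors are known to express it. The CGE marker Vip was at 3.04 CPM in Inh-MGE RNA and 379 CPM in CGE, and Adarb2 at 21.8 and 8681 CPM. The excitatory marker Slc17a7 was at 17.1 CPM in Inh-MGE and 342 CPM in CA1.

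The sequences below are the central 300 bases of 12 MGE peaks, shown because they are among the most accessible or most selective peaks, lie at genes of MGE interneurons, or differed between the strains. They were taken from the RefSeq GRCm38 genome on the plus strand, 5′ to 3′, which is the B6 sequence. Capitals mark matches, on either strand, to the 6 motifs whose share in MGE peaks was at least 1.4 times their share in all peaks: the E-box CAGCTG, bound by basic helix-loop-helix factors, the AP-1 motif TGACTCA, the POU octamer ATGCAAAT, the Mef2 motif TAAAAATA, the Maf motif TGCTGAC and the homeodomain core TAATTA, which Dlx and Lhx6 proteins are known to bind. A match is a description of the letters and not of binding. The 12 peaks are a choice and not a sample of the MGE peaks. Those near Rtp4 and Eya1 and in Pde2a and Nxph1, which held no match, are among those not printed.
The most accessible MGE peak, 11.2 kb from the start of Guca2b, chr4:119669982-119670281: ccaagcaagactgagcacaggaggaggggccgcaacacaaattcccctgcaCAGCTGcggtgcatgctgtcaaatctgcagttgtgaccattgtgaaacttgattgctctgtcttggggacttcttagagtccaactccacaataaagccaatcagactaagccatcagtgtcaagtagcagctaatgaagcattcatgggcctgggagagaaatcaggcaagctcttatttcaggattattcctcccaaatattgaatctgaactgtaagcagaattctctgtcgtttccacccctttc
The peak 66.9 kb from the start of Btbd11, chr10:85665167-85665466: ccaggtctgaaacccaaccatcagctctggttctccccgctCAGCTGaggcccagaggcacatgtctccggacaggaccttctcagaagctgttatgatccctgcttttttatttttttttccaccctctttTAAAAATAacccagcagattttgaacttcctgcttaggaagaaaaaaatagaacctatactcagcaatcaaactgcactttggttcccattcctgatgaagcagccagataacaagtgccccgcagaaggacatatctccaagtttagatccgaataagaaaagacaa
The peak 29.2 kb from the start of Fam240b, chr13:64526857-64527156: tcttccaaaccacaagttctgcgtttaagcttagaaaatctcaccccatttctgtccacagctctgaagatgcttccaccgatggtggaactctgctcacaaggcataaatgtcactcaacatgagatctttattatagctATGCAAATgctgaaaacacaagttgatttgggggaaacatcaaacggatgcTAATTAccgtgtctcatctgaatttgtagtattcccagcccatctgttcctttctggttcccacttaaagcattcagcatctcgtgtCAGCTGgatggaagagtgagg
The peak 68.2 kb from the start of Bmp2, among the highest ratios to the next group, chr2:133483760-133484059: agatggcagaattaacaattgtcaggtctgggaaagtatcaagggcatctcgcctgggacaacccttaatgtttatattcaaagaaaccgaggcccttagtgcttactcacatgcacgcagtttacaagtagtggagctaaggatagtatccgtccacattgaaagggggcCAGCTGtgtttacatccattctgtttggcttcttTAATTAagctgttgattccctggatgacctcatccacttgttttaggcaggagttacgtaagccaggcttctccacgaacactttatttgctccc
The narrower intronic peak of Sox6, chr7:115581698-115581997: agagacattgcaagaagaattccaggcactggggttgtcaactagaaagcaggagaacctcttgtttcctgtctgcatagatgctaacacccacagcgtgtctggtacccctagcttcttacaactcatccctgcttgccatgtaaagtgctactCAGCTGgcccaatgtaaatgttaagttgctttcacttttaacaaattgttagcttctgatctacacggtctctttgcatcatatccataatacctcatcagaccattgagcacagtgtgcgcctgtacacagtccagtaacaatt
The peak 75.1 kb from the start of Dlx6, chr6:6788119-6788418: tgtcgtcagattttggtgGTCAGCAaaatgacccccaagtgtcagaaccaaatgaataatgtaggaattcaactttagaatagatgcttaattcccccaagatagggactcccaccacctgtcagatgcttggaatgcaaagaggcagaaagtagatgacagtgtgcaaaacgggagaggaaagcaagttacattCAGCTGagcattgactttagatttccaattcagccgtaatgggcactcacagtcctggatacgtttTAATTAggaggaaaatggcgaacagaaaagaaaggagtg
The peak 79.5 kb from the start of Npy, chr6:49743085-49743384: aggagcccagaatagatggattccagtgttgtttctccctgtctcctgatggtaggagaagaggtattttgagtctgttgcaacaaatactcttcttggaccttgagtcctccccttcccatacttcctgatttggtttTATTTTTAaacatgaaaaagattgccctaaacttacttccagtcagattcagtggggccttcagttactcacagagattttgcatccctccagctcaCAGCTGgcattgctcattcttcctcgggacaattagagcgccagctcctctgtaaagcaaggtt
The peak just upstream of Crhbp, chr13:95445274-95445573: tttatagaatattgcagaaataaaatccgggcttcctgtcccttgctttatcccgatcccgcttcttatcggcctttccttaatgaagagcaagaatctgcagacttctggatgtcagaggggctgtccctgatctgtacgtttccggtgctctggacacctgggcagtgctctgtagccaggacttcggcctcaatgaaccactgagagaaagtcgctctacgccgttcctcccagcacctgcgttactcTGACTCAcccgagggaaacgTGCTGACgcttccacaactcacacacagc
The peak 96.9 kb from the start of Tmem132c, with 3 E-boxes, chr5:127144773-127145072: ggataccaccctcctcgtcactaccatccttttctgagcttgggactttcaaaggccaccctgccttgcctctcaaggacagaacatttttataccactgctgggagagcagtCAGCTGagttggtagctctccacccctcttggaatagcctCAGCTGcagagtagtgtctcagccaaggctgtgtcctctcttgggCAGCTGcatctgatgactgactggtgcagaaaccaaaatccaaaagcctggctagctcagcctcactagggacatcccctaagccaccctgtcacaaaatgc
The peak at an internal transcript start of Cntnap4, chr8:112731060-112731359: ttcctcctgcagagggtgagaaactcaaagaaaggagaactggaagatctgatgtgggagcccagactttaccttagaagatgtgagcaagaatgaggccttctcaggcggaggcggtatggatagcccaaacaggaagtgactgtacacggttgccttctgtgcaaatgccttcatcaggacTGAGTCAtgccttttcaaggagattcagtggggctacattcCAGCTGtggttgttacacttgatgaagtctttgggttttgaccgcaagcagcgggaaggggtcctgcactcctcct
The peak 14.6 kb from the start of Lrrc38, lower in DBA, chr4:143335041-143335340: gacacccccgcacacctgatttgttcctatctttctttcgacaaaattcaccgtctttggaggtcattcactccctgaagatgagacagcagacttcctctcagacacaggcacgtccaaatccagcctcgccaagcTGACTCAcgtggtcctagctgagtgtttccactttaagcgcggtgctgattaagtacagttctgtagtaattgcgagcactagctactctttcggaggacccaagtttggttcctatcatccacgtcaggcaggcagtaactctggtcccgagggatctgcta
The peak 62.2 kb from the start of Gpr139, higher in DBA, chr7:119122217-119122516: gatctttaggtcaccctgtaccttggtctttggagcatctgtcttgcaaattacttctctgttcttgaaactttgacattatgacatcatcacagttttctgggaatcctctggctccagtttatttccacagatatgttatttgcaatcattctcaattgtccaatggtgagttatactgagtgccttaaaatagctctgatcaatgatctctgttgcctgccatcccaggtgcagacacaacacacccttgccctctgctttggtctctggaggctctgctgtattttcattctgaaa

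The MGE peaks had a median of 7.91 CPM in Inh-MGE, with quartiles of 6.25 and 11.0 CPM and a highest value of 43.3 CPM. Their median was 1.76 CPM in the CGE group, 0.799 in CA1, 0.659 in CA3, 0.481 in DG and 0.594 in NN. The CGE group was thus the nearest in level, and it was the next highest group for 852 of the 1218 peaks. CA1 was next for 170 peaks, CA3 for 107, NN for 57 and DG for 32. The ratio of Inh-MGE to the next group had a median of 4.01, with 605 peaks below 4, 405 from 4 to 6, and 208 at 6 or more. In NN, 85 MGE peaks had a count of 0, and in each of the 4 other groups every MGE peak had at least 1 count.

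**Figure D1:**
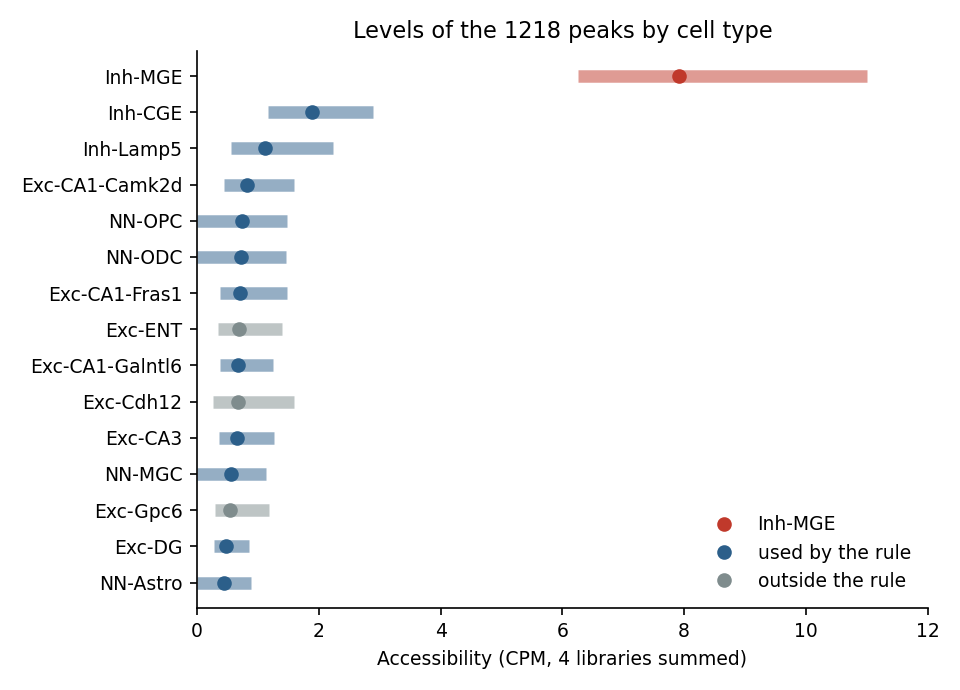
Accessibility of the 1218 MGE peaks in each of the 15 cell types (x axis, CPM of the 4 libraries summed, as median points with bars from the lower to the upper quartile). Inh-MGE has a median of 7.91 CPM, Inh-CGE of 1.88 CPM and Inh-Lamp5 of 1.12 CPM, and the medians of the excitatory and non-neuronal types lie below 1 CPM, including the 3 types that the rule did not use (grey).

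The values repeated across libraries. The median over the MGE peaks was 7.77 and 8.05 CPM in the B6 libraries and 8.07 and 8.08 CPM in the DBA libraries, from medians of 36 to 60 counts per peak. In 1217 of the 1218 peaks the lowest Inh-MGE library was above every other group, and in 756 it was at least 3 times every other group. The rule applied to the B6 libraries alone took 971 of the MGE peaks and to the DBA libraries alone 1025, and 789 passed in both. These counts describe how firmly the peaks sit above the threshold, since the same libraries had chosen them.

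The 3 types Exc-ENT, Exc-Gpc6 and Exc-Cdh12 stood outside the rule. The rule had taken peaks high in Inh-MGE and low in the other excitatory groups CA1, CA3 and DG, so the shares below are no independent check. They are a description, and no like share over other peaks is given here. The 3 types had medians of 0.693, 0.542 and 0.668 CPM over the MGE peaks. Inh-MGE was at least 3 times as high as Exc-ENT in 1100 peaks (90.3%), as Exc-Gpc6 in 1092 (89.7%) and as Exc-Cdh12 in 1076 (88.3%). In 981 peaks (80.5%) it was at least 3 times as high as all 3, and in 35 at least 1 of the 3 was above Inh-MGE. Within the CGE group, Inh-MGE was at least 3 times Inh-CGE in 979 peaks (80.4%) and at least 3 times Inh-Lamp5 in 1061 (87.1%).

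Peaks just inside the threshold lay in Camk1d (chr2:5511640-5511885, 7.68 CPM in Inh-MGE and 2.56 in CGE) and 40.5 kb from Api5 (chr2:94478315-94478955, 6.46 CPM and 2.15 in CA1). The 3 just outside lay in Bri3 (chr5:144428658-144429309, 8.13 and 2.71 CPM), 50.5 kb from Gm10192 (chr4:97132274-97133137, 9.07 CPM and 3.02 in CA3) and 14.2 kb from Chil1 (chr1:134167461-134168408, 9.03 and 3.01 CPM). All of these ratios rounded to 3.

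The most accessible MGE peak lay between genes on chromosome 4, 11.2 kb from Guca2b, which encodes uroguanylin. The B6 libraries gave 44.9 and 40.4 CPM there and the DBA libraries 42.9 and 45 CPM, against 14.1 CPM in CGE. Inh-Lamp5 held 19.9 CPM of accessibility there and Inh-CGE 10.8, and Guca2b itself had no RNA count in Inh-MGE. The second, 43.5 kb from Rtp4 on chromosome 16 (chr16:23652652-23654187), stood at 34.3 CPM in both B6 libraries, 41.8 and 34.7 CPM in DBA, and 7.28 CPM in CGE. The third (34.7 CPM) was 29.2 kb from Fam240b, whose Inh-MGE RNA was at 27.2 and 20 CPM in B6 and 129.6 and 112 CPM in DBA (log2 fold change 2.33, adjusted p = 1.01e-08, edgeR), while the peak was not called between the strains (adjusted p = 0.815, edgeR).

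Others of the 10 most accessible peaks were also open in several other groups. The peak at an internal transcript start of Pde2a (chr7:101481965-101483096), a cyclic nucleotide phosphodiesterase, stood at 33.4 CPM in Inh-MGE, 11.0 in DG and 10.5 in CA1. Its level was 20.6 CPM in Exc-Gpc6 and 18.4 CPM in Exc-Cdh12, so that it failed the 3-fold limit in types the rule did not use. Pde2a RNA in Inh-MGE was at 111 and 131 CPM in B6 and 34.1 and 32.6 CPM in DBA (log2 fold change -1.89, adjusted p = 3.11e-08, edgeR). The same held for the promoter of Oprd1 (chr4:132143459-132145063), the delta opioid receptor, with 28.6 CPM in Inh-MGE, 8.79 in CGE and 21.3 in Exc-Gpc6. Oprd1 RNA was at 70.5 CPM in Inh-MGE and 13.6 CPM in CGE, the next group.

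The peak 66.9 kb from Btbd11 was the most selective of the 10. It stood at 30.6 and 34.5 CPM in B6 and 26.5 and 27.8 CPM in DBA, against 3.61 CPM in CGE and at most 0.891 CPM in the other groups. Btbd11 had 348 CPM of RNA in Inh-MGE and 262 CPM in CGE. A peak in an intron 281 kb from the nearest protein-coding start, that of Tfec (chr6:16553326-16554262), showed a like pattern with 29.1 CPM in Inh-MGE and 5.47 in CGE. There Inh-CGE held 7.98 CPM and Inh-Lamp5 0.980 CPM. The remaining peaks of the 10 lay in Sptb, in Dlgap2 and 412 kb from Matn1, with 27.7 to 31.6 CPM in Inh-MGE and ratios of 3.02 to 3.18.

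The 5 peaks with the highest ratio to the next group, with 1 CPM as the least denominator, had 13.0 to 14.9 CPM in Inh-MGE and under 1 CPM in each other group. They lay 478 kb from Mon1b (chr8:113157342-113158049), 68.2 kb from Bmp2 (chr2:133483554-133484264), in an intron of Utrn (chr10:12468848-12469515), 13.4 kb from Atp8a1 (chr5:67860482-67861120) and 397 kb from Adgrl2 (chr3:148425981-148426755). Utrn encodes utrophin, a relative of dystrophin, and its RNA was highest in Inh-MGE among the 6 groups, at 405 CPM against 211 CPM in NN. Atp8a1, a lipid flippase, was at 303 CPM in Inh-MGE and 386 CPM in NN. Bmp2 was at 0.829 CPM in Inh-MGE RNA and at 2.49 CPM in NN.

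Genes known from work on MGE interneurons, and genes of GABA synthesis and transport, were then read from lists. Not all of them marked Inh-MGE here. RNA was highest in Inh-MGE, in every library, for 5 of the 19 factors listed and 14 of the 24 subtype genes. That held for 6 of the 16 genes of fast spiking and the net, and for 0 of the 5 GABA genes. Of 19 MGE transcription factors 3 held an MGE peak and 1 more had one within 100 kb of its start, of 24 subtype genes 3 and 3 more, of 16 genes of fast spiking and the perineuronal net 3 and no more, and of 5 genes of GABA synthesis and transport none. The genes with an MGE peak were Sox6, Satb1, Trps1 and Dlx6 among the factors, Sst, Crhbp, Myo5b, Npy, Eya1 and Tmem132c among the subtype genes, and Nxph1, Cntnap4 and Ank1 among the last. Together 9 of the 64 genes (14.1%) held an MGE peak, beside 420 of the 21911 protein-coding genes on chromosomes (1.92%). The list genes were longer, with a median of 54.9 kb against 17.4 kb, and the part of length in these shares was not tested.

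Lhx6, the factor that defines the lineage, held 7 peaks and no MGE peak. Its most accessible peak had 39.9 CPM in Inh-MGE, 2.47 times the next group, and its RNA was at 67.5 CPM in Inh-MGE and 25.8 CPM in CGE. Pvalb, a calcium buffer of fast-spiking cells, held 4 peaks with a best ratio of 2.57 among those at 5 CPM, and Cort, a relative of somatostatin, held 1 with a ratio of 2.43. Gad1 and Gad2, which make GABA in all interneurons, had best ratios of 1.03 and 1.04. The Dlx1 and Dlx2 genes, active in both lineages, had 0.991 and 1.14.

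The promoter of Sst (chr16:23890268-23891073, 0.288 kb from the start) was an MGE peak and the only peak of that gene. It stood at 13.6 and 13.3 CPM in B6 and 16.4 and 16.0 CPM in DBA, against 2.51 CPM in CGE and at most 1.07 CPM elsewhere. Sst RNA was at 1513 and 617 CPM in B6 and 1159 and 2107 CPM in DBA, and the next group, NN, was at 50.4 CPM. The B6 library numbered 3 was the lowest of the 4 for this hormone and for Npy RNA (91.1 CPM, with 146 to 303 in the others), and at neither gene did the strain difference pass the test described below (adjusted p = 0.183 and 0.0798, edgeR).

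Crhbp, which binds corticotropin-releasing hormone and marks somatostatin cells, had 2 MGE peaks at its start among its 5 peaks. The larger (chr13:95443191-95444308) had 19.4 CPM in Inh-MGE and 4.82 in CGE, and the smaller (chr13:95445254-95445593) had 5.31 and 0.653 CPM. Crhbp RNA was at 91.7 CPM in Inh-MGE and 2.72 CPM in NN, the next group. Npy, a peptide of somatostatin and neurogliaform cells, had 2 MGE peaks 79.5 and 52.4 kb from its start with 9.27 and 8.87 CPM, while the peaks in and next to the gene were as open in CGE, with a best ratio of 0.974.

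Satb1, a chromatin organiser needed for the maturation of these cells, had an MGE peak at a transcript start (chr17:51826033-51827019, 7.52 CPM in Inh-MGE and 1.46 in CGE) and another in an intron (chr17:51739972-51740915, 8.62 CPM and 2.47 in CA3). The intronic peak was also at 4.85 CPM in Exc-ENT. Sox6, which acts downstream of Lhx6, had 2 intronic MGE peaks among its 39 peaks, with 7.23 CPM (chr7:115750225-115751311) and 5.27 CPM (chr7:115581684-115582011). In the narrower of them no other group passed 0.853 CPM, whereas the wider was at 1.93 CPM in NN. Nxph1, a neurexin ligand, had 1 of 29, in an intron (chr6:8996356-8997656), with 17 CPM in Inh-MGE, 4.45 in DG and 4.02 in CGE.

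Among the remaining list genes, Ank1, which links membrane proteins to the cytoskeleton, had an MGE peak at a transcript start (chr8:23138848-23139128) with 9.76 CPM in Inh-MGE and 1.76 in CGE. Cntnap4, a cell adhesion protein of interneuron synapses, had 2, with 8.01 and 6.25 CPM, and the first of these was also at 5.06 CPM in Exc-ENT. The peaks of Dlx6 (9.52 CPM), Tmem132c (9.19), Trps1 (7.27), Myo5b (6.21) and Eya1 (5.76) had ratios of 3.21 to 5.46. In RNA, Ank1, Cntnap4, Tmem132c and Nxph1 were highest in Inh-MGE in every library, whereas Trps1 was at 252 CPM against 729 CPM in CA3, Eya1 at 62.1 against 195 in NN, Myo5b at 78.3 against 172 in DG and Dlx6 at 12.4 against 20.5 in CGE.

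The annotation placed the MGE peaks away from promoters. Of the 1218, 571 (46.9%, 95% exact binomial interval 44.0 to 49.7) were intergenic, 527 (43.3%) intronic, 43 (3.53%) in exons and 77 (6.32%, 5.02 to 7.84) at promoters, meaning within 1 kb of any transcript start. Of all peaks 35.7% were intergenic and 12.4% at promoters, and of the 40299 other peaks at 5 CPM or more in Inh-MGE (called other open peaks) 23.6% and 41.2%. The median distance from the centre to a protein-coding start was 81.8 kb for MGE peaks, 39.9 kb for all peaks and 12.2 kb for other open peaks. Dense CpG was rare, since 9 MGE peaks (0.739%) had over 40 CpG per kb, compared with 4.83% of all peaks and 27.9% of other open peaks. MGE peaks had a median width of 554 bp against 1189 bp for other open peaks, and a median GC content of 45% against 52.0%. A peak that is open in every group cannot pass the 3-fold rule, so these shares are set in part by the rule.

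The central 300 bases were searched on both strands for 18 motifs. CAGCTG was found in 634 of the 1218 MGE peaks (52.1%, interval 49.2 to 54.9), compared with 20.5% of all peaks and 24.7% of other open peaks. TGACTCA was found in 247 (20.3%, 18.1 to 22.6), compared with 9.66% and 7.18%. The share of MGE peaks was thus 2.54 times that of all peaks for the E-box and 2.10 times for AP-1. The counts are over peaks, which are not replicates, and the intervals cover counting error only.

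Smaller differences were seen for the other motifs marked above. ATGCAAAT was in 4.19% of MGE peaks and 2.37% of all peaks, TAAAAATA in 7.47% and 4.35%, TGCTGAC in 9.11% and 5.71%, and TAATTA in 12.8% and 9.03%. A different E-box, CAGATG, was in 42.2% and 32.1%. GGGCGG (SP and KLF factors) was scarcer, in 3.53% of MGE peaks, 7.65% of all peaks and 25.9% of other open peaks. So was AGGGGGC (CTCF core), in 1.89%, 4.23% and 8.86%. AACAAT (Sox) was in 10.8% of MGE peaks and 15.1% of all peaks, and TTGGCA (NF1) in 15.4% and 21.2%. The nuclear receptor motif AGGTCA (13.3% and 12.8%), the Meis motif TGACAG (24.1% and 23.7%) and the ETS motif CCGGAA (4.19% and 4.11%) differed by less than their intervals. The last 4 were CACTTGA (Nkx2, 5.42% and 4.08%), GTTGCCA (Rfx, 2.87% and 4.65%), AGGTGTGA (T-box, 1.4% and 1.28%) and TGACGTCA (CRE, 0.493% and 0.365%).

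**Figure D2:**
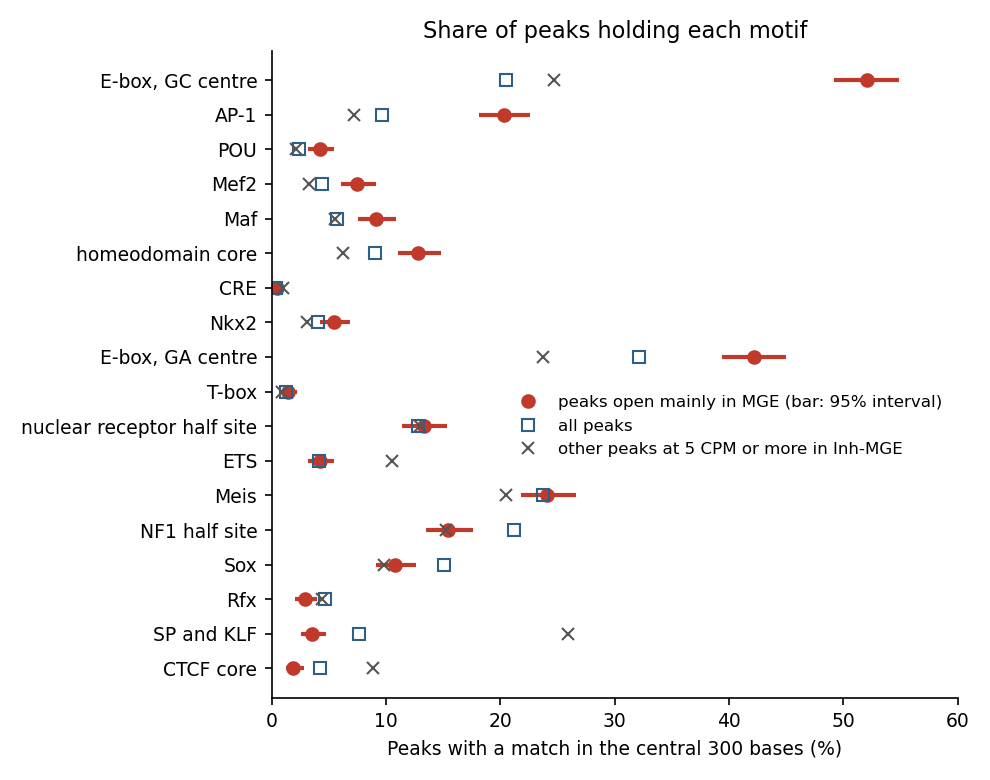
Share of peaks (x axis, %) with a match to each of 18 motifs in the central 300 bases, for MGE peaks (red, with 95% exact binomial intervals), all peaks (blue squares) and other peaks at 5 CPM or more in Inh-MGE (crosses), ordered by the ratio of MGE peaks to all peaks. The E-box with a GC centre (CAGCTG) is at 52.1% against 20.5% and AP-1 at 20.3% against 9.66%, while CTCF is at 1.89% against 4.23%.

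CAGCTG was in 53.7% of those with a ratio of 3 to 4, 49.6% of those from 4 to 6 and 51.9% of those at 6 or more, and in 55.8% at promoters, 53.5% in introns and 49.9% between genes. It was in 35.6% of MGE peaks with under 40% GC and 65.4% of those with at least 50% GC, and in 11.8% and 27.1% of all peaks of those classes. The share of MGE peaks was therefore above that of all peaks within each class of GC content. By the next group, it was 61.4% for the 57 peaks where that was NN and 54.9% where it was CGE. The share was 44.7% for CA1, 42.1% for CA3 and 31.2% for the 32 peaks of DG. For TGACTCA the order ran otherwise, with its lowest share, 17.6%, where CGE was next. It was 28.2% where CA1 was next and 29.8% where NN was.

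The same rule applied to other groups gave peak sets to set beside these. CAGCTG was in 21.7% of the 562 peaks open mainly in CGE, 12.4% of the 968 of CA1 and 15.4% of the 1466 of DG. TGACTCA was in 5.52%, 12.5% and 5.73% of them. TAATTA showed the reverse, at 29.4% in CGE against 12.8% in MGE peaks, and so did AACAAT at 37.9% against 10.8%. The 2 interneuron sets therefore differed in the letters they held, with CAGCTG and TGACTCA the more frequent in MGE peaks and TAATTA and AACAAT in CGE peaks. No test was made of these shares.

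Both leading motifs could stand in the same peak. They did so in 127 MGE peaks (10.4%) and in 1.99% of all peaks, and 464 MGE peaks (38.1%) and 71.9% of all peaks held neither. Counted over the 6 marked motifs, 325 MGE peaks (26.7%) held none, 549 held 1, 295 held 2 and 49 held more, against 57.6% of all peaks with none. Among the sequences printed above, those near Guca2b, Fam240b and of Btbd11, Bmp2, Sox6, Dlx6, Npy, Tmem132c and Cntnap4 hold the E-box, and those of Crhbp, Cntnap4 and Lrrc38 the AP-1 motif. The strain-dependent peak near Gpr139 holds none of the 6 in the B6 sequence. It was the less accessible in B6, and the DBA sequence was not searched.

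Matches clustered near the middle of the MGE peaks. In bins of 50 bp, CAGCTG went from 3.20 matches per 100 peaks at the lower edge (300 to 250 bp before the centre) to 15.9 between 50 and 100 bp past it, and to 5.50 at the upper edge. In other open peaks it ranged from 3.26 to 5.58. Those peaks were wider, with a median of 1189 bp against 554 bp, and the part of width in this contrast was not tested. TGACTCA peaked at 5.50 per 100 MGE peaks between 100 and 150 bp past the centre. The maximum was thus shifted towards higher coordinates, for MGE peaks and for other open peaks alike. Peak centres were also set beside gene starts. At starts of protein-coding genes with a peak of 10 CPM or more within 500 bp, the peak centre lay a median 23.0 bp past the start for genes on the plus strand and 200.0 bp before it, in genome coordinates, for genes on the minus strand, with a mean of the 2 medians of -88.5 bp. The mean thus lay towards lower coordinates, although the plus-strand median did not, and the part of this in the motif positions was not tested. With the window moved by 100 bases, chosen after these positions were seen, CAGCTG was in 52.8% of MGE peaks and 21% of all peaks, and TGACTCA in 22.2% and 10.1%.

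**Figure D3:**
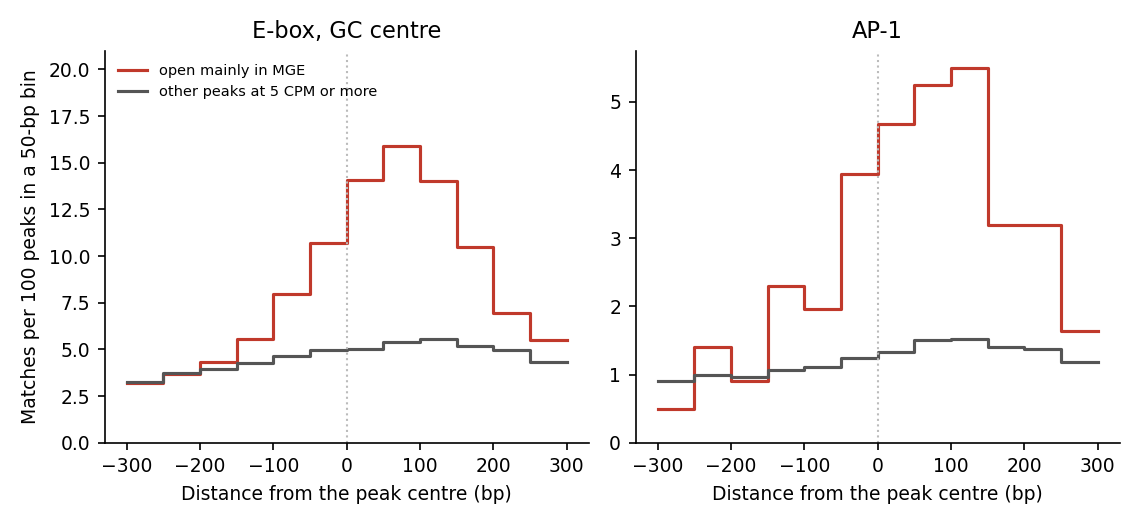
Matches per 100 peaks in bins of 50 bp (y axis) by distance from the peak centre in genome coordinates (x axis, bp), for the E-box CAGCTG (left) and the AP-1 motif TGACTCA (right). MGE peaks (red) reach 15.9 and 5.50 matches per 100 peaks to the right of the centre, and other peaks at 5 CPM or more in Inh-MGE (grey) stay at or below 5.58 and 1.53.

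Of the 1218 MGE peaks, 530 (43.5%) lay in a protein-coding gene or its 2 kb upstream. They fell in 420 genes, of which 342 held 1 MGE peak, 57 held 2 and 21 held 3 or more. RNA of these genes was read from the snRNA-seq libraries. Cell labels of the 2 assays are tied as described above, and what part this has in the result was not tested. A gene was counted as highest in Inh-MGE where the lowest of the 4 Inh-MGE libraries was above the summed level of every other group. That held for 92 of the 389 genes at 1 CPM or more (23.7%, interval 19.5 to 28.2), compared with 7.05% of all 13246 protein-coding genes at that level and 6.75% of genes with another open peak and no MGE peak. RNA at least 3 times every other group was found for 15 (3.86%), compared with 0.627% of all genes. The median of the ratio to the next group, on the log2(CPM + 1) scale, was -0.26 for these genes and -0.37 for all, so that most genes with an MGE peak were not highest in Inh-MGE. The median RNA level was 99.9 CPM for genes with an MGE peak, 20.5 CPM for all and 22.7 CPM for genes with another open peak only. The part of level in these contrasts was not tested.

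The share was larger in genes that held more of the peaks. It was 21.5% with 1 MGE peak (n = 312 genes), 30.4% with 2 (n = 56) and 38.1% with 3 or more (n = 21), with intervals that overlap. Genes with more peaks were also at higher levels, with a median of 77.2, 202 and 809 CPM, and the part of level and of gene length in the share was not tested.

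**Figure D4:**
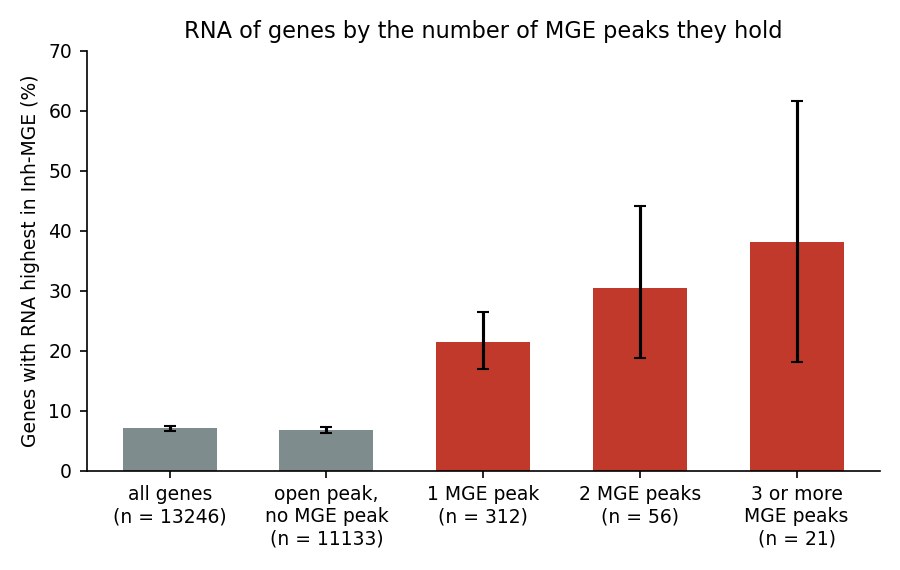
Share of protein-coding genes at 1 CPM or more whose RNA was highest in Inh-MGE among the 6 groups in every library (y axis, %), by the number of MGE peaks in the gene, with 95% exact binomial intervals. The shares are 7.05% for all genes, 6.75% for genes with another open peak only, and 21.5%, 30.4% and 38.1% for genes with 1, 2 and 3 or more MGE peaks.

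Besides Sst, Satb1, Crhbp and Oprd1, the 15 genes at 3 times every other group included a few that were picked out after their values were seen. Cacna2d2, a calcium channel subunit, held 3 MGE peaks and had 206 CPM of RNA in Inh-MGE (199 to 213 over the libraries) and 35.3 CPM in CGE. Kctd8, an auxiliary subunit of GABA-B receptors, held 2 and had 438 CPM (293 to 561) against 104 CPM. Gna14, a G protein subunit, held 2 and had 42.6 CPM (27.9 to 60) against 1.88 CPM in CA3. Corin, a protease, held 1 and had 19.1 CPM (10.6 to 30.8) against 0.955 CPM in CGE. In each of these the lowest library was above the next group.

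The 10 genes with the most MGE peaks were mostly long. Agbl1, a carboxypeptidase gene of 895 kb on chromosome 7, held 6 among its 76 peaks. Its RNA was at 58.9 and 81.8 CPM in B6 and 102 and 82.8 CPM in DBA. It was at most 13.4 CPM in the 5 other groups, and at 16.0 CPM in Exc-Gpc6, which is outside them. Utrn, Ptprm, Mindy4, Slc9a9, Astn2, Cdh13, Tenm2 and Dlg2 held 4 each, of 76, 104, 23, 107, 167, 191, 286 and 412 peaks. Their lengths ran from 487 kb for Utrn to 1973 kb for Dlg2, apart from Mindy4 at 117 kb. Tram2, taken from among the genes with 3, held them among 14 peaks in 82.9 kb and was at 2.07 CPM of RNA in Inh-MGE and 9.07 CPM in NN. In every Inh-MGE library, RNA of Agbl1, Utrn, Ptprm and Astn2 was above the 5 other groups, and that of the other 6 genes was not. Cajal-Retzius nuclei, which are outside the 6 groups, held 845 CPM of Utrn RNA, above every Inh-MGE library.

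The strain comparison asked whether accessibility of MGE peaks in Inh-MGE nuclei differed between DBA and B6 mice. It was fitted over all peaks with at least 10 counts with the quasi-likelihood test of edgeR, with Benjamini-Hochberg adjustment at 0.05. All 1218 MGE peaks were tested. The counts of called peaks are a description, because a peak that is high in 1 strain can pass the rule through that strain. Of the MGE peaks 22 (1.81%) were higher in DBA and 14 (1.15%) lower, beside 0.436% higher and 0.419% lower among the 239708 peaks tested on chromosomes, and with 1.09% and 0.620% of the other open peaks. Of the 22 higher in DBA, 19 passed the rule in DBA alone and 5 in B6 alone, and of the 14 lower in DBA, 13 passed in B6 alone and 4 in DBA alone. Among the 789 MGE peaks that passed in both strains alone, 2 were higher (0.253%) and 4 lower (0.507%), and among the other 429 there were 20 and 10. The calls thus lay mostly in peaks that did not pass in both strains, and nothing is read from the share of all MGE peaks against the background. The median log2 fold change, DBA minus B6, was 0.08 for MGE peaks, 0.06 for other open peaks and 0.01 for all. The changes called spanned 0.56 to 3.41 on the log2 scale in size, and 25 of the 36 were larger than 2-fold. The number of calls depends on the libraries. There were 16 calls without the B6 library numbered 2, 20 without the B6 library numbered 3, 19 without the DBA library numbered 2 and 25 without the DBA library numbered 3. DESeq2 called 6 MGE peaks, all among the 36.

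Of the 10 peaks described next, the 5 higher in DBA passed the rule in DBA alone and not in B6, 4 of those lower in DBA passed in B6 alone and not in DBA, and the one near Dmrta2 passed in neither strain alone. The peak with the largest change lay in an intron of Dnah8, an axonemal dynein gene on chromosome 17 (chr17:30697666-30698244). The B6 libraries gave 0.647 and 0.875 CPM there and the DBA libraries 7.26 and 9.12 CPM (log2 fold change 3.41 ± 0.40 SE, adjusted p = 4.67e-14, edgeR). Dnah8 RNA in Inh-MGE was at 0.566 and 0.749 CPM in B6 and 14.0 and 13.7 CPM in DBA (log2 fold change 4.28 ± 0.43, adjusted p = 1.33e-06, edgeR). In CGE nuclei, with libraries summed, B6 had 0.392 CPM at the same peak and DBA 1.14 CPM.

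The second, 62.2 kb from Gpr139, an orphan G protein-coupled receptor, stood at 1.94 and 1.57 CPM in B6 and 8.87 and 8.23 CPM in DBA (log2 fold change 2.33 ± 0.33, adjusted p = 1.58e-09, edgeR). CGE, the next group, was at 0.201 CPM there. The other 3 of the 5 largest lay 266 kb from Pkn2 (chr3:143147411-143147764), 69.2 kb from Ifng (chr10:118510069-118510397) and 136 kb from Sstr4 (chr2:148259251-148259618), with log2 fold changes of 1.55, 1.53 and 1.49. Both DBA libraries were above both B6 libraries in each. DESeq2 did not call the peaks near Ifng and Sstr4, and the one near Ifng was also not called without the B6 library numbered 2. In CGE nuclei, with libraries summed, the peaks near Pkn2 and Ifng were at 0.914 and 0.392 CPM in B6 and 2.77 and 2.61 CPM in DBA.

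Of the peaks lower in DBA, the one 14.6 kb from Lrrc38, an auxiliary subunit of large-conductance potassium channels, stood at 9.28 and 11.4 CPM in B6 and 2.02 and 1.35 CPM in DBA (log2 fold change -2.56 ± 0.31, adjusted p = 1.30e-13, edgeR). A peak 23.6 kb from the start of Gpr158 and outside it (chr2:21343787-21344193), stood at 9.71 and 10.5 CPM in B6 and 2.15 and 1.35 CPM in DBA (-2.46 ± 0.31, adjusted p = 1.40e-12, edgeR). Gpr158 RNA did not follow, with a log2 fold change of -0.01 ± 0.11 (adjusted p = 0.950, edgeR). The peak with the smallest p-value of the 10 lay 158 kb from Rab11fip2 (chr19:59784352-59785448), at 17.7 and 19.9 CPM in B6 and 3.76 and 4.34 CPM in DBA (adjusted p = 8.42e-21, edgeR). In CGE nuclei B6 had 3.26 CPM at that peak and DBA 3.02 CPM, and the difference between the cell groups was not tested. The last 2 lay 58.4 kb from Dmrta2 (chr4:110036176-110036692, -1.49) and in an intron of Mepe (chr5:104327060-104327869, -1.31). Neither was called by DESeq2. The call near Dmrta2 was also lost without the DBA library numbered 3, and that in Mepe without the DBA library numbered 2, where the log2 fold change was -0.82.

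**Figure D5:**
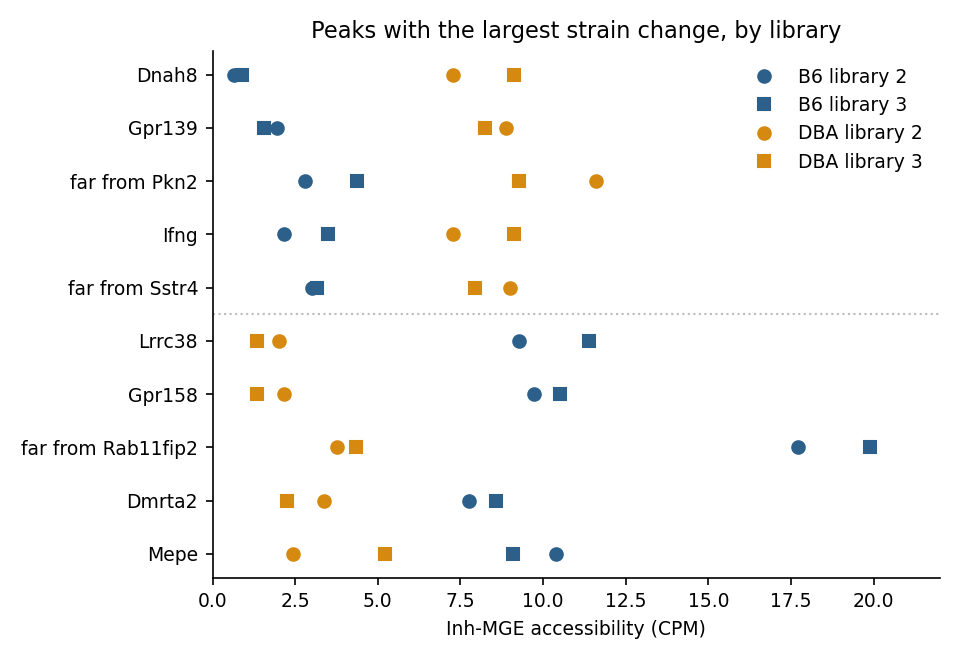
Inh-MGE accessibility (x axis, CPM) in each of the 4 libraries for the 10 MGE peaks with the largest strain change, 5 higher in DBA (top) and 5 lower (bottom), labelled by their gene or, where no protein-coding start lies within 100 kb, by the nearest one. The 10 were chosen among called peaks in which both libraries of a strain lie on one side of both of the other. Values run from 0.647 and 0.875 CPM in B6 against 7.26 and 9.12 CPM in DBA at Dnah8 to 17.7 and 19.9 CPM against 3.76 and 4.34 CPM far from Rab11fip2.

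RNA of the genes was then set beside the 36 peaks. A gene was assigned to 21 of them and its RNA was tested for 17, and 8 of these genes differed between the strains. Of all 15114 symbols tested, 13.2% were called higher and 7.84% lower in DBA. In all 8 the RNA changed in the direction of the peak. Besides Dnah8, Gpr139 and Lrrc38, they were Angpt1, Thsd7a, Chn2, Sntg1 and Opcml, named because they are the rest of this count. Lrrc38 RNA was at 4.53 and 3.99 CPM in B6 and 1.23 and 0.701 CPM in DBA (-2.07 ± 0.48, adjusted p = 0.00458, edgeR), and Gpr139 RNA at 0.283 and 2.00 CPM in B6 and 6.87 and 3.51 CPM in DBA (2.12 ± 0.57, adjusted p = 0.0130, edgeR). Both genes were at low levels and neither was called by DESeq2. Gpr139 was also not called without the B6 or the DBA library numbered 2, nor Lrrc38 without the DBA library numbered 3.

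Angpt1, a ligand of the Tie2 receptor, rose in both assays. Its intronic peak (chr15:42468845-42469304) was at 4.75 and 3.15 CPM in B6 and 8.07 and 9.87 CPM in DBA, and its RNA at 4.25 and 10.2 CPM in B6 and 22.8 and 24.9 CPM in DBA. Chn2, a Rac GTPase-activating protein, fell in both, with 14.9 and 17.1 CPM against 6.19 and 9.57 CPM at its peak (chr6:54183746-54184729) and 51.2 and 54.4 CPM against 32.6 and 29.5 CPM of RNA. Thsd7a fell by 1.06 at its peak (chr6:12764737-12765264) and by 0.65 in RNA on the log2 scale, Sntg1 fell by 1.03 (chr1:9024208-9024791) and by 0.52, and Opcml fell by 0.97 (chr9:28223915-28224393) and by 0.40. The RNA calls of Sntg1 and Opcml were both lost without the DBA library numbered 3, and that of Opcml also without the B6 library numbered 3 or the DBA library numbered 2, and with the library number as a replicate block. The remaining 9 genes tested had adjusted p from edgeR above 0.05. Of these, Pcsk6, Ank2 and Ube2h had RNA log2 fold changes of -0.18, -0.24 and -0.03 beside peaks higher in DBA. The others had the sign of their peak.

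Over all genes that held MGE peaks, 375 were tested in RNA. Of them 15 (4%) were higher in DBA and 52 (13.9%) lower, against 13.2% and 7.84% of the 15114 symbols tested. Among genes at 1 CPM or more, the median RNA level was 99.9 CPM with an MGE peak and 20.5 CPM for all. The part of level in the shares called was not tested. Over all cell types, 8204 of 33902 symbols had counts in DBA libraries alone and 960 in B6 libraries alone. With the 13895 symbols counted in both strains alone, 4.92% of all were higher and 6.63% lower, and among the genes with MGE peaks 2.71% and 12.2%. The number lower in DBA rests partly on 1 library, since it was 22 without the DBA library numbered 3 (5.87%, beside 4.92% of all symbols) and 34 without the B6 library numbered 3 (9.07%, beside 5.78%). Among list genes with an MGE peak, Satb1 was lower in DBA (269 and 238 CPM in B6, 200.0 and 193 CPM in DBA, -0.40 ± 0.11, adjusted p = 0.0114, edgeR), while its 2 peaks had log2 fold changes of -0.06 and -0.16 and were not called.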

How the data were processed

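Whole-number counts per peak or gene, cell type and library were deposited by the authors. Per the study's methods, reads were processed with Cell Ranger ATAC 2.0.0 and Cell Ranger 6.0.2, and nuclei were filtered and clustered with Seurat 4.0.5, with doublets removed by DoubletFinder. DBA reads were aligned to an mm10 genome carrying DBA variants, peaks were called with MACS per sample and merged, and peaks over 10000 bp were removed. Nuclei of the snATAC-seq libraries took their labels from snRNA-seq. The methylation samples among the 24 of the series were not used here.

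Counts were summed over the 4 libraries per cell group and scaled to CPM. Inh-MGE libraries held 4633977 to 7437300 snATAC-seq and 2851256 to 4074254 snRNA-seq counts. Strains were compared, DBA minus B6, with edgeR 4.0.16 (TMM, quasi-likelihood, Benjamini-Hochberg adjustment over all features, at least 10 counts for peaks and filterByExpr for transcripts) in R 4.3.3, without a block. DESeq2 1.42.0, other filters and normalization, a replicate block and leaving out each library were alternatives. The edgeR fits were tested on simulated data. Peaks were annotated with GENCODE M21 and read from RefSeq GRCm38 with Python 3.11.15.

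Named peaks were the 10 with the highest Inh-MGE CPM, the 5 with the highest ratio to the next group (floor 1 CPM), those at genes of the lists, the 5 with the largest called strain change each way, and the 3 on each side of the threshold. The peaks with a strain change were also required to have both libraries of one strain on one side of both of the other. A peak just inside the threshold and a few genes are not reported here. Named genes were the 10 that held most MGE peaks and the list genes. The peaks and lists were chosen with earlier results of these data known.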

Additional observations from a re-analysis of the deposited data

How the results depend on the processing

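For the number of MGE peaks (1218), a limit of 2 times each other group gave 2968, 4 times gave 613, 3 CPM gave 2040, 10 CPM gave 382 and every cell type as its own group gave 531, while leaving out 1 library gave 1221 to 1268. Promoters made up 9.77% within 2 kb and 1.64% with protein-coding transcripts alone. The ratio for CAGCTG was 2.73 in 200 bases, 1.98 in whole peaks and 2.11 against other open peaks, and for TGACTCA 1.71 in whole peaks and 2.82 against other open peaks. The cause of these shifts was not tested.

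DESeq2 called 167 of all peaks higher and 239 lower in DBA, and 3 and 3 MGE peaks. Without 1 library, 504 to 650 of all peaks were higher and 531 to 598 lower, with 8 to 16 and 8 to 9 MGE peaks. For transcripts, DESeq2 called 627 lower, no filter gave 3204 higher, and symbols with counts in both strains gave 683 higher. Without 1 library 743 to 1372 were lower, and 22 to 64 of the genes with MGE peaks. MGE peaks held medians of 36 to 60 counts per library, which limits the precision of each value.

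The library number as a replicate block gave 839 and 812 of all peaks and 18 and 13 MGE peaks, and 1925 and 1056 transcripts with 16 and 37 genes of MGE peaks. Same-numbered libraries deviated with a correlation of 0.0216 in snATAC-seq and -0.151 in snRNA-seq. The crossed replicate block, chosen after seeing the data, called 25 genes of MGE peaks higher and 109 lower. Among named peaks and transcripts, 17 values lost their call under an alternative and 161 kept it, and no direction was reversed.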
